A study of Rattus norvegicus with 4 samples.

Results

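Glycosphingolipid synthesis enzymes were followed in RNA of a pair of clones of PC12, a rat pheochromocytoma line used as a model of neural cells. The wtPC12 clone has low levels of REST, a repressor of neuronal genes, and the hrPC12 clone, also called PC12-27, has high levels. The clones carry no further allele or treatment in the labels, and 2 libraries were sequenced from each. The comparison asks how the expression of the pathway differs between a low-REST and a high-REST clone. There is only 1 clone for each level, so the effect of REST cannot be told apart from whatever else distinguishes them, and nothing says whether the libraries came from separate cultures. The p values may then measure a spread that is only technical.

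The members are 10 genes, and they were listed by name. A4galt was chosen by its value in this comparison, its loss in hrPC12, and its values are therefore given as a description with no test. The others were chosen as steps of the same pathway. Of the 10 genes, 9 had a row among the 25810 genes of the count files. All 9 were among the 13726 genes kept for testing, which averaged 5 or more normalized counts and were read in each clone. A4galt and St8sia1 passed it through wtPC12. St6galnac5, the enzyme of an alpha-series ganglioside, was not analysed here.

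Glycosphingolipids are built on ceramide in the Golgi apparatus. Ugcg adds glucose, and B4galt5 or B4galt6 add galactose to give lactosylceramide, the branch point of the pathway. From there A4galt opens the globo series (globotriaosylceramide), A3galt2 the isoglobo series, B3gnt5 the lacto series, and St3gal5 makes the ganglioside GM3. St8sia1 turns GM3 into GD3, the start of the b series, and B4galnt1, B3galt4 and St3gal2 extend gangliosides to the complex forms that are abundant in neuronal membranes.

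In hrPC12 A4galt and St8sia1 were close to absent, B4galnt1 was lower, and Ugcg and St3gal2 were higher. Among the 8 members other than A4galt, 2 rose past an adjusted p of 0.01 (Ugcg and St3gal2) and 2 fell (B4galnt1 and St8sia1), while 5.94% and 7.14% of all tested genes did so in these directions. With the additional threshold of the study, a log2 FC past 2 in either direction, St3gal2 remained as higher and St8sia1 as lower, for which the shares of all tested genes were 4.84% and 5.46%. St8sia1 was kept for testing only through its wtPC12 reads and had to differ, so its call, and the counts of lower members that include it, are a description and no support. The adjusted p values come from the quasi-likelihood F test of edgeR, adjusted by Benjamini-Hochberg over all tested genes. The libraries of the clones did not overlap in 7 of the 8 genes, 4 higher and 3 lower in hrPC12. Among all tested genes 37.9% were higher and 35.6% lower without overlap, and for 1 gene alone the smallest 2-sided p of an exact permutation test with 2 libraries per clone is 0.333. Over these 8 genes the log2 FC had a median of 0.44, beside 0.06 for all tested genes.

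**Figure D1:**
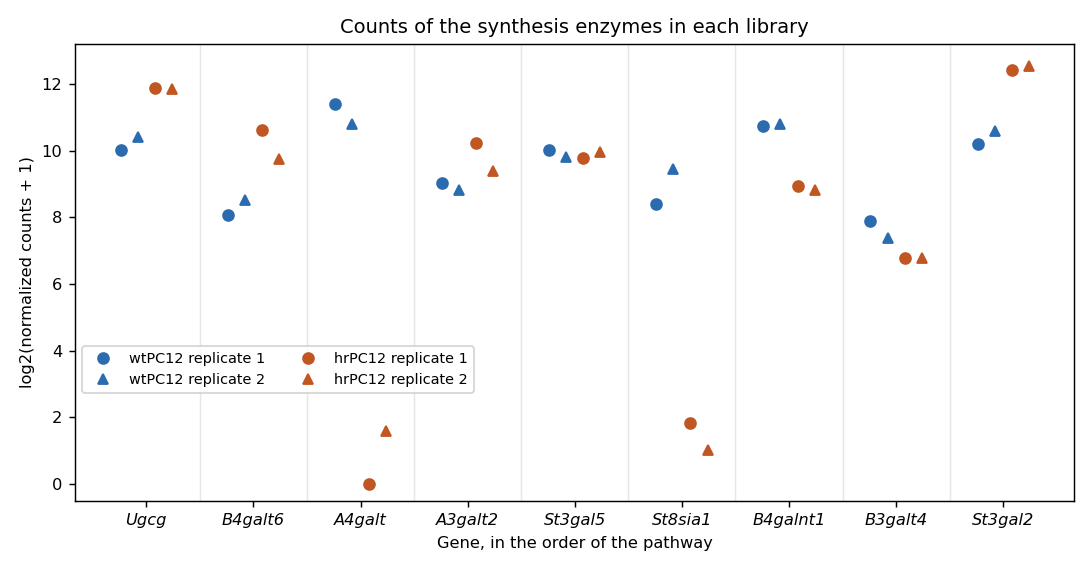
The plot shows log2(normalized counts + 1) of the 9 enzymes with a row, in pathway order, with 1 point per library (blue, wtPC12; orange, hrPC12; circles, replicate 1; triangles, replicate 2). A4galt and St8sia1 drop to at most 3 reads in hrPC12, whereas Ugcg, B4galt6 and St3gal2 lie higher there and the points of St3gal5 overlap.

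The libraries held 20975027 and 21999191 reads on genes in wtPC12 and 27246502 and 21634943 in hrPC12. Values below are counts scaled by TMM factors (normalized counts) unless reads are named. In such bulk RNA, fewer cells with a transcript and less transcript per cell cannot be told apart. Rest itself had 43.0 and 132 normalized counts in wtPC12 and 964 and 915 in hrPC12 (log2 FC 3.42 ± 0.57, SE), with an adjusted p of 0.0115 from edgeR's test. Its adjusted p from this test was 0.00145 with every gene tested, past both thresholds. Of the chromaffin and sympathoadrenal markers 11 could be tested, and 8 fell in hrPC12 past both thresholds and none rose. Their summed level was 882508 to 1035190 in wtPC12 and 49344 to 53734 in hrPC12. On the log2 scale Th fell by 3.08 and Dbh fell by 5.34. In the fibroblast and mesenchymal list 5 of 8 tested genes rose past both thresholds and none fell. Of those that rose, Col1a1, Col1a2 and Vim had wtPC12 means of 4.19, 2.91 and 2.77, so they were kept for testing only through hrPC12. The count that includes them is a description and no support. Among all tested genes 4.84% rose and 5.46% fell past both. The list summed to 16319 to 18105 normalized counts in wtPC12, mostly Thy1, and 95260 to 100019 in hrPC12, mostly Col3a1. Thy1 had means of 17058 in wtPC12 and 8603 in hrPC12, and Col3a1 had 94.5 and 85972. Dcn was lower in hrPC12 (log2 FC −3.10 ± 0.61, SE, adjusted p = 0.0182 from edgeR's test). With every gene tested its adjusted p was 0.00872, past both thresholds. Dcn reached the mean of 5 only through wtPC12 (means of 28.8 in wtPC12 and 3.29 in hrPC12), so its p values are a description. The leukocyte list summed to 35.0 to 44.2 in wtPC12 and 85.5 to 98.1 in hrPC12, the endothelial list to 95.4 to 115 and 619 to 627, and the Schwann and glial list to 166 to 167 and 237 to 257. Of these, 1 endothelial gene passed both thresholds. The part of these markers in the results below was not tested.

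The promoter windows of both genes that were nearly silent in hrPC12 are shown because REST acts through a motif in regulatory DNA. They are the 250 bases before the start given by RefSeq for the assembly GRCr8, which is not the build of the counts. The A4galt window is chr7:116252125-116252374 and the St8sia1 window chr4:177651554-177651803, both on the minus strand and printed 5′ to 3′. Capitals mark GGACAG, letters of the right part of the REST motif, or GGGCGG, the GC box bound by Sp1.

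A4galt: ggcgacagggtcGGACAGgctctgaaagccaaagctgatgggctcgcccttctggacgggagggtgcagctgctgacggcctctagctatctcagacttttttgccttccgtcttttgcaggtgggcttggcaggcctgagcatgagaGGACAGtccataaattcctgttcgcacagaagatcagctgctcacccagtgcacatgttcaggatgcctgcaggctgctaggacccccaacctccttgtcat

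St8sia1: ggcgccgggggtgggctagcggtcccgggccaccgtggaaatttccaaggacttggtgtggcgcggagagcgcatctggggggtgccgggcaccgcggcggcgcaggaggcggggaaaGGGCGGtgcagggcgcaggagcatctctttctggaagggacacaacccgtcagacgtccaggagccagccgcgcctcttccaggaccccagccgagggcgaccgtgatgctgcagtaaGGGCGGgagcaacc

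The windows were searched on both strands for the left part of the REST motif (TTCAGCACC) and for CAGCACC, a shorter core of it. They were also searched for GGACAG from the right part and for the GC box. The core lies within the left part, so that these searches overlap. The A4galt window held GGACAG at 2 places, starting 238 and 102 bases before the start, and neither form of the left part. The St8sia1 window held GGGCGG at 2 places, starting 132 and 14 bases before the start, and none of the searched letters of the REST motif. Those letters were also absent from the windows of A3galt2, St3gal5, B3galt4 and St3gal2. No window of Ugcg, B4galt6 or B4galnt1 was searched. Among 33469 rat windows of this length, 18.2% held GGACAG, 30.5% the GC box, 5.43% the shorter core and 0.305% the left part. The windows also differed in CpG content, with 7 CpG in that of A4galt and 24 in that of St8sia1, where the median window has 5. The A4galt window lies inside the annotated span of the gene. These matches describe letters only.

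A4galt, the globotriaosylceramide synthase, had 2330 and 1735 reads in the wtPC12 libraries and 0 and 2 in the hrPC12 libraries. In normalized counts these were 2710 and 1787 in wtPC12, a mean of 2249 ± 653 (SD, n = 2), and 0 and 2.02 in hrPC12. The ratio of wtPC12 to hrPC12 over the summed reads was 2409, with an exact 95% counting interval of 666 to 19899 that covers counting error only. Among the genes with at least 100 normalized counts in wtPC12 and at most 3 reads in each hrPC12 library, 95 in all, A4galt had the second highest wtPC12 mean. Among the genes with a symbol near it by wtPC12 mean were the transcription factor gene Tbx3, with 1358 and 1618 normalized counts in the wtPC12 libraries, and Bmp7, a secreted growth factor, with 1263 and 1396.

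A3galt2, which makes isoglobotriaosylceramide from the same substrate, remained expressed in hrPC12. Its normalized counts were 525 and 448 in wtPC12 and 1204 and 673 in hrPC12. Both hrPC12 libraries lay above both wtPC12 libraries, but the log2 FC of 0.95 ± 0.34 (SE) did not pass (adjusted p = 0.0892 from edgeR's test). The hrPC12 libraries differed from each other by 1.79-fold, and without hrPC12 replicate 1 the log2 FC was 0.47.

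St8sia1, the GD3 synthase, was the other enzyme with few reads in hrPC12. It had 291 and 682 reads in wtPC12 and 3 and 1 in hrPC12, or 339 and 703 normalized counts against 2.54 and 1.01. The log2 FC was −8.06 ± 0.70 (SE, adjusted p = 0.00157 from edgeR's test), and the ratio over the summed reads was 288 with an exact 95% counting interval of 112 to 1060. Because the gene was kept only through wtPC12, this p is a description. The wtPC12 libraries differed by 2.08-fold. With so few reads in hrPC12 the fitted value depends on the prior count, and it was −7.09 with a prior count of 2. Without wtPC12 replicate 2 the log2 FC was −7.44 and the adjusted p 0.0174, at a setting where the smallest adjusted p of all tested genes was 0.0134.

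Of the first steps, Ugcg rose. Ugcg, the glucosylceramide synthase, had 1045 and 1355 normalized counts in wtPC12 and 3729 and 3688 in hrPC12, a log2 FC of 1.63 ± 0.20 (SE, adjusted p = 0.00494 from edgeR's test). This is 3.09-fold, with hrPC12 libraries that lay within 1.01-fold of each other. Without wtPC12 replicate 1 its adjusted p was 0.0105, and without wtPC12 replicate 2 it was 0.0169. B4galt6, a lactosylceramide synthase, had 268 and 363 in wtPC12 and 1574 and 866 in hrPC12. Its log2 FC of 1.95 ± 0.37 (SE) had an adjusted p of 0.0177 from edgeR's test and did not pass, although the libraries of the clones did not overlap. Its adjusted p was 0.00527 with RLE factors and 0.0165 with the filterByExpr filter, so that this call turned on the setting. Without hrPC12 replicate 2 the log2 FC was 2.27 with an adjusted p of 0.00249, past both thresholds.

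B4galt5, the paralog that makes lactosylceramide in most tissues and that is not a member, rose more. It had 1747 and 1993 normalized counts in wtPC12 and 13863 and 12436 in hrPC12, a log2 FC of 2.81 ± 0.19 (SE, adjusted p = 0.000854 from edgeR's test). Reads on B4galt6 per read on B4galt5 were 0.153 and 0.182 in wtPC12 and 0.114 and 0.0697 in hrPC12, so that the balance within a library shifted toward B4galt5. This ratio does not depend on the scaling of the libraries and, without gene lengths, is compared only between libraries.

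St3gal5, the GM3 synthase, showed no separation of the clones. Its normalized counts were 1047 and 902 in wtPC12 and 872 and 999 in hrPC12. The log2 FC was −0.06 ± 0.21 (SE, adjusted p = 0.841 from edgeR's test), and its sign changed with the scaling and with the library left out, between −0.21 and 0.04. A change smaller than this error could not be seen with 2 libraries per clone.

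The enzymes that extend GM3 differed in direction. B4galnt1, the GM2 and GD2 synthase, fell from 1703 and 1795 normalized counts in wtPC12 to 486 and 450 in hrPC12. Its log2 FC was −1.90 ± 0.20 (SE, adjusted p = 0.00286 from edgeR's test), just inside the log2 FC threshold. Without wtPC12 replicate 2 the adjusted p was 0.0190. B3galt4, the GM1 synthase, had 235 and 166 in wtPC12 and 108 and 108 in hrPC12, without overlap, but its log2 FC of −0.89 ± 0.32 (SE) had an adjusted p of 0.0910 from edgeR's test.

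St3gal2, which adds the terminal sialic acid of GD1a and GT1b, rose. It had 1166 and 1527 normalized counts in wtPC12 and 5532 and 5951 in hrPC12, a log2 FC of 2.09 ± 0.21 (SE, adjusted p = 0.00248 from edgeR's test) or 4.26-fold. The value lies just past the log2 FC threshold. It was 1.88 when wtPC12 replicate 1 was left out, 1.99 when hrPC12 replicate 2 was, and 2.30 with an adjusted p of 0.0160 when wtPC12 replicate 2 was.

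**Figure D2:**
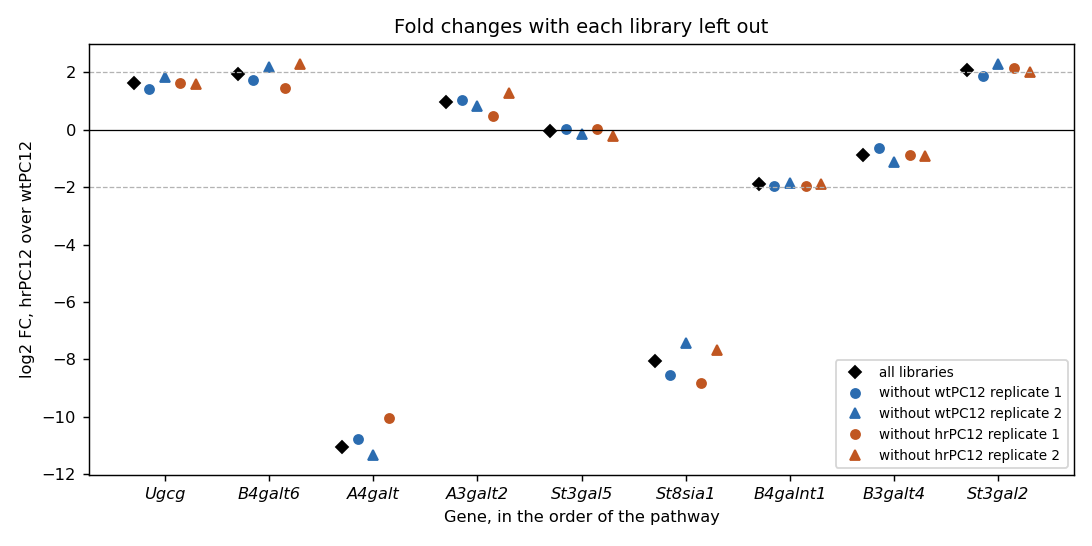
The plot shows the log2 FC (hrPC12 over wtPC12) of each enzyme with all libraries (diamonds) and with each library left out, where the dashed lines mark the threshold of 2. Every gene except St3gal5 keeps its sign, St3gal2 and B4galt6 cross the line of 2, and A4galt has no value without hrPC12 replicate 2 because the remaining library holds 0 reads.

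Within a library, the reads of enzymes that share a substrate or act in sequence could be compared without any scaling. Reads on A4galt per read on St3gal5, both of which use lactosylceramide, were 2.59 and 1.98 in wtPC12 and 0 and 0.00203 in hrPC12. Reads on St8sia1 per read on B4galnt1, both of which use GM3, were 0.199 and 0.391 in wtPC12 and 0.00523 and 0.00225 in hrPC12. The remaining pairs act in sequence. B4galnt1 per read on St3gal5 went from 1.63 and 1.99 to 0.557 and 0.451, and B3galt4 per read on B4galnt1 from 0.138 and 0.0924 to 0.223 and 0.240. The ratio of St3gal2 to B3galt4 was 4.96 and 9.20 in wtPC12 and 51.1 and 55.0 in hrPC12.

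**Figure D3:**
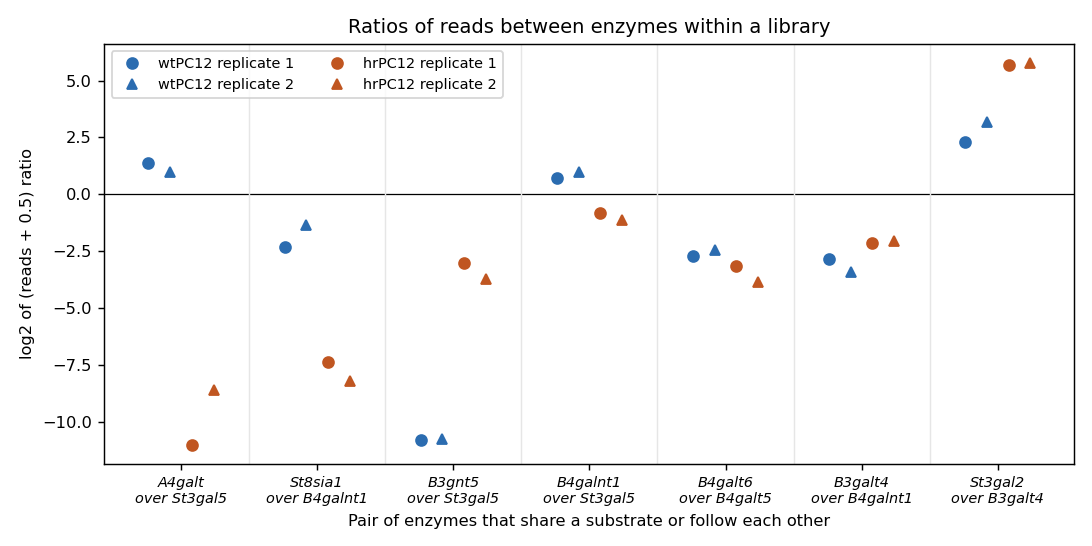
The plot shows the log2 ratio of reads, each count raised by 0.5, between a pair of enzymes in each of the 4 libraries (colors and symbols as in the plot of counts). The pairs with A4galt or St8sia1 on top lie several units lower in hrPC12, while B3gnt5 over St3gal5 and St3gal2 over B3galt4 lie higher.

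Outside the members, 6 lists of related genes held 75 symbols, of which 63 had a row and 51 could be tested. Past both thresholds 3 were lower and 3 higher in hrPC12, and 3 and 5 past the adjusted p threshold alone. For the adjusted p threshold alone, the shares of all tested genes were 7.14% lower and 5.94% higher. Of the 51 genes, 11.8% passed both thresholds in either direction, beside 4.84% higher and 5.46% lower among all tested genes. Of the genes called, St6galnac3 was kept for testing only through wtPC12 and Asah2 only through hrPC12. The counts and the share that include them are a description and no support. Their median log2 FC was 0.32, beside 0.06 for all tested genes.

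Other glycosyltransferases accounted for 4 of the 6 genes. Besides B4galt5, Fut1, which adds fucose in the H antigen and in fucosyl-GM1, fell from 4239 and 3495 normalized counts in wtPC12 to 571 and 599 in hrPC12 (log2 FC −2.72 ± 0.20, SE, adjusted p = 0.00104 from edgeR's test). St8sia3, a sialyltransferase of the same family as St8sia1, fell from 394 and 995 to 41.5 and 39.5 (log2 FC −4.10 ± 0.55, SE, adjusted p = 0.00619). St6galnac3, of the family of St6galnac5, had 81.4 and 44.3 in wtPC12 and 0.847 and 3.04 in hrPC12 (log2 FC −4.98 ± 0.74, SE, adjusted p = 0.00816), and it did not pass without wtPC12 replicate 1 (adjusted p = 0.0216). Its ratio over the summed reads was 33.5, with an exact 95% counting interval of 12.7 to 125. St6galnac3 too was kept only through wtPC12.

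The globoside synthase B3galnt1, which acts after A4galt, had 407 and 355 normalized counts in wtPC12 and 305 and 330 in hrPC12 (log2 FC −0.26 ± 0.25, SE, adjusted p = 0.442 from edgeR's test). B3gnt5, which opens the lacto series on lactosylceramide, had 0 reads in both wtPC12 libraries and 127 and 73 in hrPC12. It was removed by the filter for this reason, and its 90.7 ± 23.8 normalized counts in hrPC12 (SD, n = 2) are at least 27.6-fold above a floor of 3 reads per library. With every gene tested its adjusted p was 0.00031 from edgeR's test. B3gnt5 enters that fit only through hrPC12 and had to differ, so this p is a description and no support. St8sia5 had at most 1 read in any library, which is no detectable expression at this depth. Gbgt1 was not analysed here.

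The ceramide synthesis list had no gene past the adjusted p threshold among 8 tested genes, with log2 FC from −0.37 to 1.02. The 5 tested genes for other uses of ceramide also had none, and the highest log2 FC was 3.19 ± 0.53 (SE) for Sgms2, a sphingomyelin synthase chosen after its values were seen, with an adjusted p of 0.0116 from edgeR's test. With every gene tested its adjusted p was 0.00164, past both thresholds. Past the adjusted p threshold, 5.94% of all tested genes rose and 7.14% fell. In the supply of lipids and nucleotide sugars 2 of 14 genes passed the adjusted p threshold, and none passed both. They were Nans, a sialic acid synthase, with a log2 FC of 1.06 ± 0.17 (SE, adjusted p = 0.00981 from edgeR's test), and Slc35a1, the Golgi transporter of CMP-sialic acid, with 1.34 ± 0.19 (SE, adjusted p = 0.00783), both named after their values were seen. Nans did not pass with RLE factors (adjusted p = 0.01001) or with any of the 4 libraries left out (0.0219 to 0.0606), and of the 4 fits with a library left out Slc35a1 passed only in that without hrPC12 replicate 1 (0.00888).

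Among 13 tested breakdown genes 2 rose and none fell past both thresholds, where 4.84% of all tested genes rose and 5.46% fell. The count includes Asah2, which was kept only through hrPC12, so it is a description and no support. Both genes code for ceramidases. Asah1, the acid ceramidase of lysosomes, had 885 and 775 normalized counts in wtPC12 and 4747 and 2615 in hrPC12 (log2 FC 2.15 ± 0.33, SE, adjusted p = 0.00946 from edgeR's test). It was 1.66 without hrPC12 replicate 1, and without wtPC12 replicate 1 its adjusted p was 0.0258. Asah2, the neutral ceramidase, had 0 and 1 reads in wtPC12 and 616 and 583 normalized counts in hrPC12 (adjusted p = 0.000723 from edgeR's test), a ratio over the summed reads of 1100 with an exact 95% counting interval of 197 to 43487. It was kept only through hrPC12, so that its p is a description.

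The enzymes that remove single sugars were closer between the clones. Neu3, a plasma membrane sialidase of gangliosides, had 143 and 155 normalized counts in wtPC12 and 74.5 and 71.8 in hrPC12 (log2 FC −1.02 ± 0.30, SE, adjusted p = 0.0549 from edgeR's test). The log2 FC was −0.13 ± 0.18 (SE) for the hexosaminidase gene Hexa, −0.41 ± 0.22 (SE) for the galactosidase gene Glb1 and −0.49 ± 0.24 (SE) for Gla, whose enzyme degrades globotriaosylceramide, and none of these passed. In the list of other sialyltransferases 1 of 7 genes, St6galnac2, could be tested, with a log2 FC of −2.76 ± 0.52 (SE, adjusted p = 0.0170 from edgeR's test), and with every gene tested its adjusted p was 0.00435. St6gal1 of this list went the other way, with 0 reads in both wtPC12 libraries and 73 and 96 in hrPC12. It was removed by the filter for this reason.

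**Figure D4:**
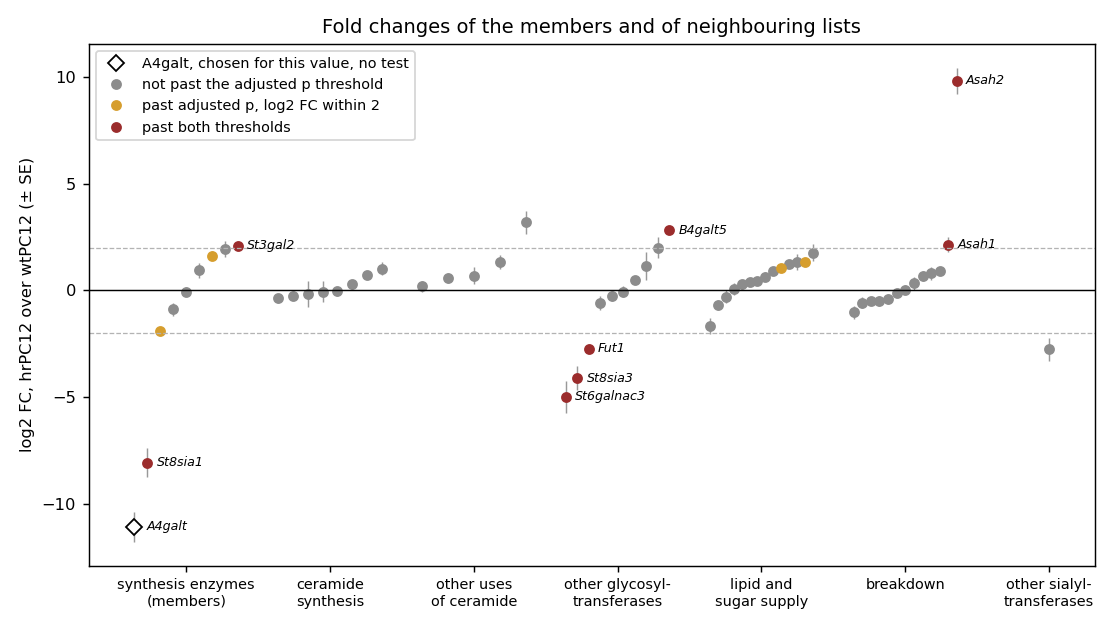
The plot shows log2 FC (hrPC12 over wtPC12) with its SE for the 9 members and the 51 tested genes of the other lists, colored by the thresholds passed, with dashed lines at a log2 FC of 2 in either direction. The open diamond is A4galt, given without a test. The other named points are past both thresholds, and the ceramide synthesis genes lie between −0.37 and 1.02.

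The hrPC12 libraries differed from each other in runs of neighbouring genes, and this touched some members. For each gene the ratio of replicate 1 to replicate 2 was set beside its median over the 10 placed genes on either side with at least 20 normalized counts, 8163 genes being placed by symbol on GRCr8. The median ratio over these 8163 genes was 0.978, and 19.5% of them had a ratio over 1.3. A3galt2 had a ratio of 1.79, and the median of its 20 neighbours was 1.65. B4galt6 had a ratio of 1.82 with a median of 1.03 over its 20 neighbours, 0.964 over the 5 before it and 1.65 over the 5 after it, in the order of the assembly.

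The ratios of Ugcg, St3gal5, B4galnt1, B3galt4 and St3gal2 lay between 0.873 and 1.08. Without hrPC12 replicate 1 the log2 FC of B4galt6 was 1.46, and that of Ugcg, B4galnt1 and St3gal2 stayed on the same side of the thresholds. Among the called genes of the other lists, Asah1 had a ratio of 1.82 with a neighbour median of 1.79. St6galnac3, also called, had a neighbour median of 1.74 but too few hrPC12 reads for a ratio of its own. Sgms2, which was not called with all libraries, had a ratio of 2.02 with a neighbour median of 1.71. What sets these runs apart was not tested.

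**Figure D5:**
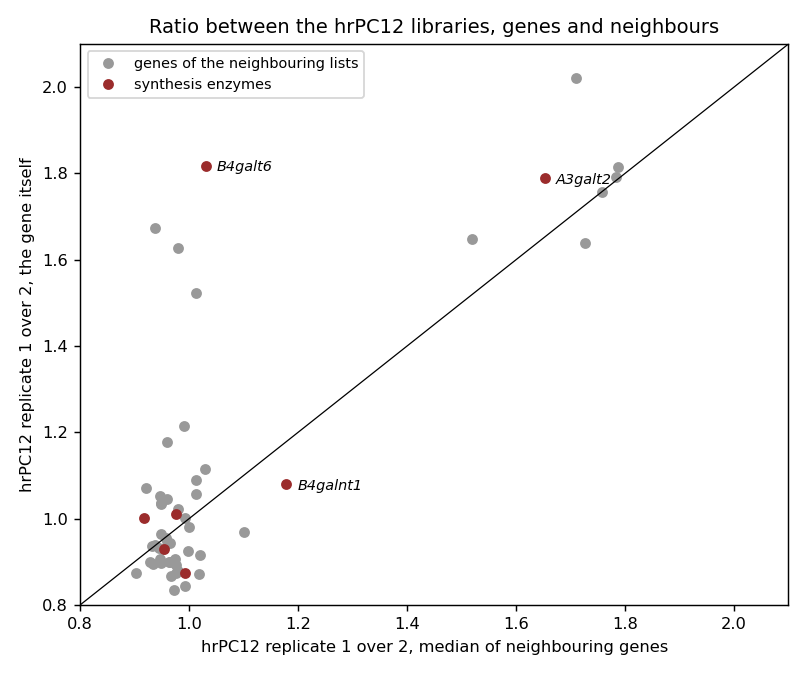
The plot sets the ratio of hrPC12 replicate 1 to replicate 2 of the members and genes of the other lists with at least 20 reads in both libraries (vertical axis) against the median ratio of its neighbours (horizontal axis), with the line of equality. A3galt2 lies near the line at a ratio of 1.79, B4galt6 lies above it at 1.82, and the remaining members plotted lie between 0.873 and 1.08. A4galt and St8sia1 have too few reads to be plotted.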

How the data were processed

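RNA of 2 libraries of each clone was sequenced as paired-end reads. Reads were aligned by the authors to build RGSC3.4 (rn4) with TopHat2 2.0.4 and counted them with HTSeq 0.5.3, per the submitters' processing notes, and deposited raw counts per gene, with no normalization. The strand setting and the annotation are not given in the sources used here. Their table of a DESeq comparison, with means, fold changes and p values, was not used.

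Reads outside genes (49.9% to 55.9%) and other reads on no gene were left out. Counts were normalized with TMM factors (0.942, 1.01, 0.997 and 1.05). Genes were tested in R 4.3.3 with the quasi-likelihood test of edgeR 4.0.16 (legacy option on, prior count 0.125) and Benjamini-Hochberg adjustment, in place of DESeq. The filter and both thresholds (0.01 for the adjusted p, 2 for the log2 FC in either direction) are those of the study. SE values are the fitted log2 FC divided by the square root of the quasi-likelihood F. Alternatives were RLE factors, library totals, every gene with at least 1 read, filterByExpr, DESeq2 1.42.0, the legacy option off, a prior count of 2, an adjusted p of 0.05, and each library left out.

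The members and lists were chosen with earlier results of these data known. Named genes were the members, Rest, list genes past both thresholds, fixed paralogs and breakdown enzymes, and Th and Dbh as markers. Thy1, Col3a1, Col1a1, Col1a2, Vim, Dcn and St6gal1 were named after their values were seen. The genes nearest to A4galt by wtPC12 mean exclude those listed by a protein entry name, and such rows were not joined to symbols. Some genes that these rules name are not reported here. Older symbols were used for the Cers genes and Cert1. A count of 0 allows up to 3 reads, or 2.54 to 3.49 normalized counts. Such limits and the exact intervals cover counting error only, since reads carry no molecular identifiers.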

Additional observations from a re-analysis of the deposited data

How the results depend on the processing

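No paired analysis was possible because the sample labels of the clones share fewer than 2 replicate marks. The replicate numbers used here only name libraries and pair none of them. Of the 8 members other than A4galt, 2 passed both thresholds with RLE factors, library totals, every gene tested, filterByExpr, DESeq2, the legacy option off and an adjusted p of 0.05, and with either hrPC12 library left out, although without hrPC12 replicate 2 these were St8sia1 and B4galt6. With libraries left out in turn, where the lone library of a clone is assumed to vary like the other clone, the number ranged from 0 to 2, and past the adjusted p threshold alone from 0 to 5, beside 4 with all libraries. The values of 0 are those without wtPC12 replicate 2, where edgeR called 0 of 13590 genes and the smallest adjusted p was 0.0134. There 6 of the 8 members had an unadjusted p under 0.05, as did 6798 of all genes and 28 pathway genes. Over all genes the calls ranged from 0 to 1821 with libraries left out, beside 1414. Without wtPC12 replicate 1, 1 member passed both thresholds. The pathway genes lower in hrPC12 ranged from 0 to 5 and those higher from 0 to 4 with libraries left out, beside 3 and 3. Those higher were 6 with every gene tested and 5 with filterByExpr, which admit genes with 0 reads in a clone. With every gene tested they also included Sgms2, which was read in both clones. They were 4 with RLE factors, library totals, DESeq2 and an adjusted p of 0.05.

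The log2 FC of St3gal5 reversed to 0.012 with library totals, and ranged from −0.206 to 0.0352 with libraries left out, beside −0.06. Ugcg ranged from 1.59 to 1.69 over the other settings. The fitted log2 FC of A4galt, −11.06, was −9.58 with a prior count of 2 and −10.03 without hrPC12 replicate 1. No scaling moved the median log2 FC of all genes by more than 0.1. The cause of these changes was not tested. With 2 libraries per clone, small differences such as that of St3gal5 could not be resolved.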
